A study of Mus musculus with 8 samples.

Results

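The sites described here kept an intermediate methylation level in every sample of a bisulfite sequencing study of the 4T1 mouse mammary carcinoma line. They were the positions whose methylated fraction lay from 35% to 65% in all 8 samples, and 1455 of the 136069 positions in the table (1.07%) met this rule. The 8 samples comprised 2 tumors of the mammary gland and 3 lung metastases whose titles end in MFP, and 3 further lung metastases whose titles end in TVI. The labels do not spell out these endings. All samples carried the same labels for cell line (4T1, a transplantable carcinoma line) and for strain (BALB/c), and the labels gave no genotype, age, time or agent other than the bisulfite reagent. The title gave each sample a number within its group, but no label said whether samples came from separate animals, so spread between samples may be technical. No read depth came with the fractions, so the counting error of a value is unknown. Both tumors belong to MFP, so in a comparison of the TVI metastases with the tumors the tissue and the title ending cannot be told apart. These sites were chosen by their measured fractions in all 8 samples. Their level, their narrow spread and their differences between groups are therefore descriptions, and no test of them is given.

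DNA methylation in mammals sits mainly on the cytosine of CpG dinucleotides, and each DNA copy is either methylated or not at a given CpG. An intermediate fraction in a bulk sample is thus usually read as some copies carrying the mark and others not, and that reading was not checked here. Known settings in which this arises are imprinted genes, where the parental alleles differ, the X chromosome in female cells, the edges of CpG islands (CpG-rich stretches that are mostly free of methylation), and mixtures of cells that differ. A table of fractions holds no information on which copies were methylated together, so most of these settings cannot be told apart here. None of the 1455 sites lay on the X chromosome, where only 71 positions were covered, so the X setting does not apply to them. In bulk tissue, a change in the mix of cells and a change within the cells cannot be told apart either.

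Sequence could be shown where the spacing of CpGs in a RefSeq promoter window (GRCm38.p6, 250 bases before to 50 after a gene's start) matched the spacing of the deposited positions. By this match 219 windows of 201 genes were placed, and 9 windows of 8 genes held a site of the intermediate set. The 4 windows below are shown because they hold 2 or more of these sites (Rhof, Grin1os, Efna3) or the promoter site with the widest gap between the lowest TVI metastasis and the highest other sample (Limd2). Rhof met the rule for named promoters, at least 3 such sites, and the others were chosen after their values were seen. They are printed 5′ to 3′ on the gene's strand, from 250 bases before the start to 30 after it, and capitals mark each CpG that lay from 35% to 65% in all 8 samples.
Rhof: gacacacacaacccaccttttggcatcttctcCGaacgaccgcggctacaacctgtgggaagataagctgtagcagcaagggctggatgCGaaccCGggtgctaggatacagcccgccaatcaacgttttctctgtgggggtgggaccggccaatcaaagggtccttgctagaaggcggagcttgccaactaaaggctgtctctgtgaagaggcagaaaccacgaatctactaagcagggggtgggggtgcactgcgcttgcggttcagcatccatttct
Grin1os: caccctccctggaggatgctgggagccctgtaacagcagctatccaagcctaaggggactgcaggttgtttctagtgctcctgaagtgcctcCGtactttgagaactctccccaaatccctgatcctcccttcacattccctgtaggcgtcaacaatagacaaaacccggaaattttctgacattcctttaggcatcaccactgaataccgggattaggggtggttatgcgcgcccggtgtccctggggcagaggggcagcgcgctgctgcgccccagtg
Efna3: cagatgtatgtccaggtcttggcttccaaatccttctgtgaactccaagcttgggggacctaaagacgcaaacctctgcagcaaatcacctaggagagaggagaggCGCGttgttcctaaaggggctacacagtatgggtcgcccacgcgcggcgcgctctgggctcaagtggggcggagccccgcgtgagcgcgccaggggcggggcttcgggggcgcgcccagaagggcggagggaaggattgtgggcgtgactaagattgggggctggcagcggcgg
Limd2: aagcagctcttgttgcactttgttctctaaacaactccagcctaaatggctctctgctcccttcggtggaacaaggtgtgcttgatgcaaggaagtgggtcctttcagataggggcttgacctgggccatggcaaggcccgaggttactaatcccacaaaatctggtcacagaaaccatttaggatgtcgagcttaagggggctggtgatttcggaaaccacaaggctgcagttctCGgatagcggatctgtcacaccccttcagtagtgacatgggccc

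Rhof encodes a small GTPase that acts on actin in filopodia. All 13 CpGs of its window were in the table, and 3 of them, at bases -218, -161 and -155 from the start, were intermediate in every sample. The site at -161 stood at 45.8% and 51.2% in the tumors, at 45.8%, 42.7% and 54.2% in the MFP metastases, and at 53.0%, 47.3% and 58.6% in the TVI metastases. The groups overlapped there, and they overlapped at -155 too, where the samples ran from 44.4% to 52.9%. At -218 the TVI metastases, at 54.6% to 59.3%, lay above the other samples, at 40.5% to 53.6%. Over the whole Rhof window the mean of a site ran from 23.8% to 64.5%. The window mean went the other way from -218, at 33.8% to 39.3% in the TVI metastases and 41.3% to 47.0% in the other samples.

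Grin1os is a transcript from the strand opposite Grin1, the gene of the obligatory NMDA receptor subunit. Its window had all 13 CpGs in the table, 2 of them in the intermediate set. At base -158 the tumors stood at 46.6% and 56.2%, the MFP metastases at 50.5%, 42.9% and 57.5%, and the TVI metastases at 41.9%, 47.5% and 54.3%. These groups overlapped fully. The other site, at base 47 after the start (past the printed end), ran from 40% to 55.1%. The Grin1 promoter itself, placed by 19 of its 33 CpGs, had a mean of 91.8% and no site of the intermediate set.

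Efna3 encodes ephrin-A3, a membrane-anchored ligand of Eph receptors. This window was placed by 9 of its 22 CpGs. The other CpGs of the window were not among the deposited positions, so their lower case says nothing about their methylation. Its 2 intermediate sites were neighboring CpGs, at bases -144 and -142. At -144 the tumors stood at 40.8% and 39.4%, the MFP metastases at 51.8%, 39.8% and 49.6%, and the TVI metastases at 61.7%, 61.1% and 57.4%. All 3 TVI metastases lay above all 5 other samples. At the neighboring -142 the TVI metastases, at 58.7%, 51.4% and 61.2%, overlapped the MFP metastases, at 54.2%, 45.6% and 50.4%.

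Limd2 encodes a small protein with a LIM domain. The intermediate site, 14 bases before its start, stood at 41.8% and 37.0% in the tumors, at 42.2%, 39.8% and 42.5% in the MFP metastases, and at 61.8%, 63.5% and 62.2% in the TVI metastases. It met the rule in every sample although the TVI metastases lay apart from the rest. Another annotated start of Limd2, placed by 11 of its 42 CpGs, had a window mean of 1.38% and no intermediate site, so 1 of the gene's placed starts was unmethylated in the same samples. A second window of Pex16 had a mean of 2.04% and no intermediate site. A second window of Efna3, placed by 10 of its 34 CpGs, had none either but a higher mean of 15.5%, with sites from 4.63% to 29.9%. The site 90 bases before the start of Gm15998 had the same pattern, at 58.0% to 64.96% in the TVI metastases and 37.7% to 46.9% in the other samples. The mean of the whole Gm15998 window went the other way, at 29.4% to 35.6% in the TVI metastases and 47.2% to 51.8% in the other samples. Single intermediate sites also lay in the windows of Tcam1 (a testicular cell adhesion molecule) at 37.6% to 57.7%, of Pex16 (a peroxisome biogenesis factor) at 39.4% to 58.1%, and of Gm52569 at 36.9% to 48.2%. Over the whole windows that held intermediate sites, all TVI metastases lay below the other samples for Rhof, Gm15998 and Tcam1. They lay above them for Efna3, Limd2, Pex16 and Gm52569, and overlapped them for Grin1os. Such separation was not counted over all placed windows, and it also occurred in windows without an intermediate site. The Hoxa10 window stood at 79.6% to 85.6% in the TVI metastases and 57.8% to 62.7% in the other samples. The Cyba window stood at 2.04% to 9.30% in the TVI metastases and 36.8% to 43.1% in the other samples. Hoxa10 and Cyba were named after their values were seen.

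**Figure D1:**
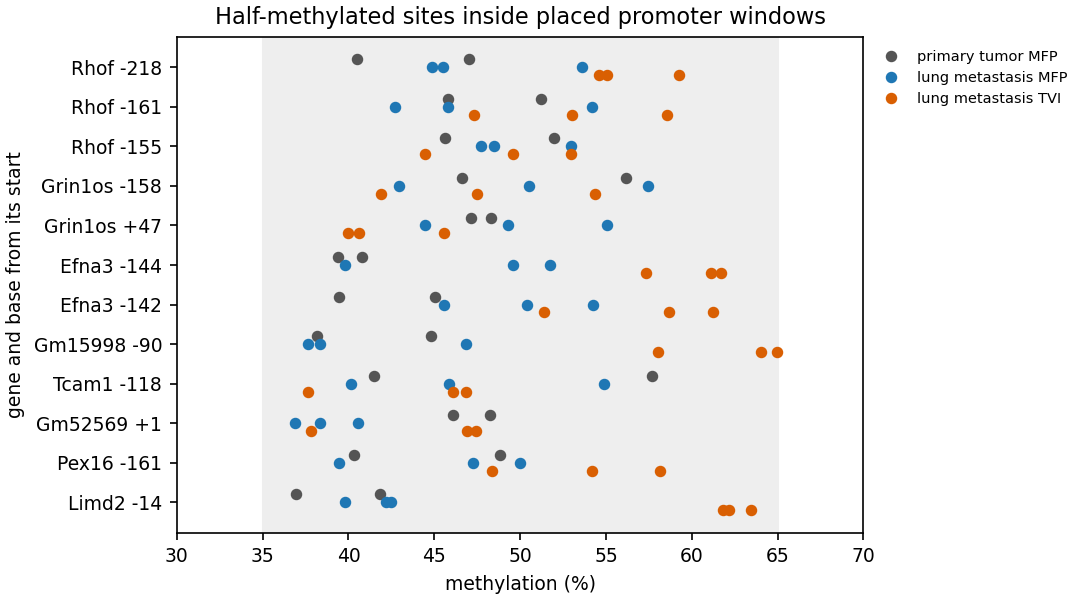
Methylation in percent (x axis) of the 12 intermediate sites inside placed promoter windows, by gene and base from the gene's start (y axis); each point is 1 sample and the gray band is the range of the rule. The TVI metastases lie to the right of the other 5 samples at Rhof -218, Efna3 -144, Gm15998 -90 and Limd2 -14, and overlap at least 1 of them at the other 8 sites.

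Placed promoters were otherwise mostly unmethylated. Of the 2866 positions inside them, 85.7% had a mean of 20% or less and 12 (0.419%) belonged to the intermediate set, against 1.07% of all positions. Within 10000 bp of a placed start the share was 0.896%, and within 50000 bp it was 0.986%. A window was placed only with at least 8 matching positions, which favors dense stretches. Among all positions with 10 to 19 others within 250 bp the share was 0.877%, and with 20 to 29 it was 0.577%. The part of density in the low share inside placed promoters was not tested. Some short runs of intermediate sites lay near unmethylated promoters. A run of 3 had its middle at -593 bp from (that is, before) the start of Pfkfb3, a regulator of glycolysis, whose window had a mean of 2.94%. Another run of 3 had its middle 746 bp after the start of Ak8, an adenylate kinase gene whose window had a mean of 1.27%. Pfkfb3 and Ak8 were named after their values were seen.

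The lists of genes named for imprinting, X inactivation, the germline and the DNA methylation machinery could not be read from these data. Of 64 imprinted genes, 50 had a promoter window in the reference table and 0 were placed. Of 9 X inactivation genes, 10 germline genes and 10 genes for writers and erasers of DNA methylation, 0 were placed. No promoter was placed either among 5 markers of mammary carcinoma epithelium, 6 of leukocytes, 4 of endothelium, 4 of fibroblasts and 5 of lung epithelium, so the labelled tissue was not checked against markers. A gene whose promoter was not placed is not described, and nothing follows for it.

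Intermediate sites were shared more often among MFP samples than between MFP and TVI samples. Of 6094 sites that were in the range in all 3 MFP metastases, 1891 (31.0%) were also in it in all 3 TVI metastases, whereas 4651 (76.3%) were in it in both primary tumors. Starting from the 7220 sites in the range in both tumors, 64.4% were in it in all 3 MFP metastases and 28.9% in all 3 TVI metastases, which are groups of equal size. The TVI metastases held 5925 such sites of their own, of which 31.9% were shared with all MFP metastases. Single samples had 8582 to 9524 sites in the range (6.31% to 7.0% of all sites). These are counts in these samples, with no test.

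**Figure D2:**
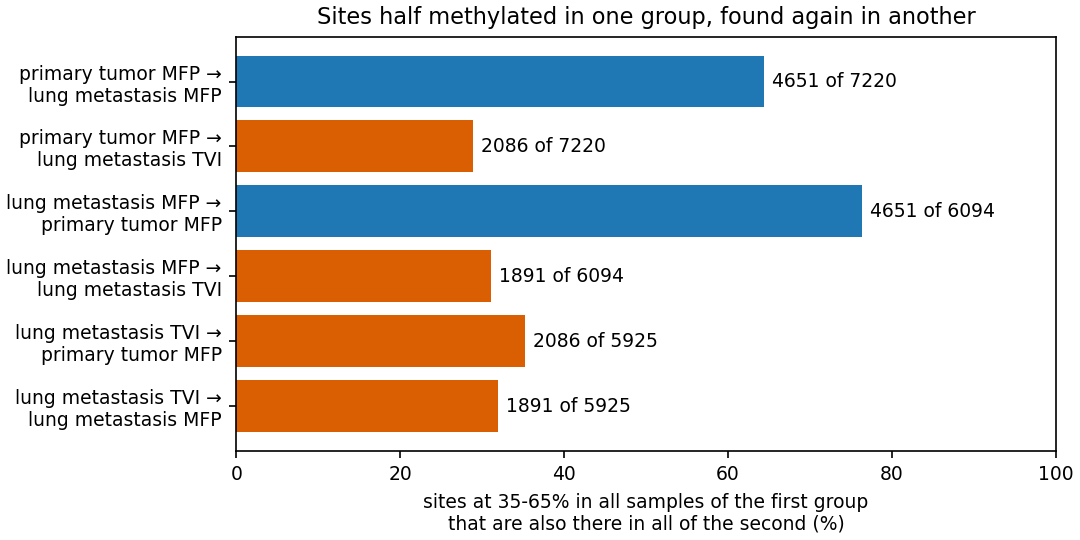
Percent of the sites lying from 35% to 65% in all samples of a first group that also did so in all samples of a second (x axis), for each ordered pair of groups (y axis, with counts). Pairs of MFP groups reach 64.4% and 76.3%, and pairs with the TVI metastases 28.9% to 35.2%.

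The 4651 sites in the range in all 5 MFP-marked samples had different fates in the TVI metastases. In all, 1455 (31.3%) were in the range in all 3 TVI metastases too, and these are the sites described here. Another 1644 (35.3%) were above 65% in all 3, and 536 (11.5%) were below 35% in all 3. The TVI mean reached 80% or more at 782 of the 4651 and 20% or less at 254. The remaining 1016 fell in none of these classes. Sites that missed the rule through 1 sample only numbered 107 to 172 per MFP-marked sample and 147 to 223 per TVI metastasis, the most for TVI metastasis replicate 2.

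The level of the sites centered near 50%. The median of their means was 50.6%, with quartiles of 47.5% and 53.9%, and 1030 of the 1455 had a mean from 45% to 55%. The median difference between the highest and the lowest sample was 16.8 points, and it ran from 3.46 to 29.5 points. Averaged over the sites, the tumors stood at 49.8% and 48.6%, the MFP metastases at 51.1%, 50.6% and 50.8%, and the TVI metastases at 51.6%, 51.1% and 51.3%. Both tumors were lowest. They were also lowest over all 136069 sites, where means ran from 66.6% to 68.7%. By group means, 205 of the 1455 were over 10 points higher and 162 over 10 points lower in TVI than in MFP metastases. Between MFP metastases and tumors, 99 sites were over 10 points higher and 30 over 10 points lower in the metastases. Such gaps were not counted over all sites and are bounded by the rule, so these numbers only describe the set.

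Quantile normalization, which forces all samples to the same distribution, changed this order. After it the retained sites averaged 52.9% and 52.8% in the tumors, 52.2%, 52.1% and 52.1% in the MFP metastases, and 47.6%, 47.5% and 47.5% in the TVI metastases. The direction of an average difference between TVI and the other samples at these sites thus depends on the scale, and none is claimed.

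The steadiest single site lay on chromosome 11 at position 98207537. It stood at 55.2% and 57.3% in the tumors, 56.9%, 58.1% and 56.8% in the MFP metastases, and 54.8%, 54.7% and 56.8% in the TVI metastases. The next was position 125931767 on chromosome 8, at 45.1% to 49.2%, then position 100717709 on chromosome 11, at 48.6% to 53.0%. Position 107609539 on chromosome 9 ran from 41.8% to 46.5%, and position 79152654 on chromosome 15 from 49.3% to 54.4%. At all 5 of these sites the TVI metastases overlapped the other samples, and the choice of the smallest ranges favors such overlap.

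The 5 sites with the widest range still within the rule had the TVI metastases apart from the others. They were chosen by the gap between their highest and lowest sample, which favors sites where groups lie apart. The share of sites with the TVI metastases apart was not counted, so nothing is read from this separation. Position 182314932 on chromosome 1 stood at 43.3% and 41.5% in the tumors, 37.2%, 35% and 45.6% in the MFP metastases, and 64.5%, 62.4% and 62.7% in the TVI metastases. Position 121125563 on chromosome 5 was at 63.3% to 64.9% in the TVI metastases and 35.6% to 50.6% elsewhere. Position 35158526 on chromosome 16 and position 8585880 on chromosome 11 were also higher in the TVI metastases, at 57.1% to 64.97% and 54.0% to 64.6%. Position 46532277 on chromosome 19 was lower in them, at 35.1% to 39.3%, against 45.7% to 63.9% in the other 5 samples. At the chromosome 1 site the group means were 63.2% ± 1.14 (SD, n = 3) in the TVI metastases and 39.3% ± 5.6 (SD, n = 3) in the MFP metastases.

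At the lower edge of the rule, 3 sites entered with a lowest sample at exactly 35%, on chromosome 1 at 74851295 and 182314932 and on chromosome 11 at 103652575. Just outside were position 79157913 on chromosome 15, with a lowest sample at 34.97%, and positions 120441541 and 69468659 on chromosome 11, at 34.97% and 34.95%. At the upper edge, positions 25153280 and 32483877 on chromosome 2 and 52962902 on chromosome 7 were inside with a highest sample at exactly 65%. Just outside were positions 121663784 and 23803002 on chromosome 8, at 65.02% and 65.03%, and position 85861024 on chromosome 15, at 65.035%. The limits thus separated sites with nearly the same values. Position 79157913 lies within the second largest cluster described below.

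A limma fit of all sites, adjusted by the Benjamini-Hochberg method, gives the background against which group differences at these sites can be read. Between TVI and MFP metastases 192 of the 1455 passed at an adjusted p under 0.05 (13.2%), against 16.9% of all 135914 sites tested. Of these, 120 were higher in the TVI metastases, where 10.4% of all sites were, and 72 were lower, where 6.53% were. Against the tumors, 146 passed in the TVI metastases, against 16.6% of all sites. Of these, 108 were higher, where 11.4% of all sites were, and 38 lower, where 5.24% were. In both metastasis groups combined 16 passed, against 6.74% of all sites, 13 higher and 3 lower, against 5.12% and 1.62%. Between MFP metastases and tumors limma called 0 of the 1455, and again 0 on the logit scale. It called 0.0464% of all sites, 0.0427% higher and 0.00368% lower. At an unadjusted limma p under 0.05 were 109 of the 1455 and 11766 of all 135914 sites. No member can move further than the width of the range, so these shares were bounded by the choice of the sites and nothing is read from them.

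Which direction prevailed among the called sites depended on the scale. After quantile normalization limma called 261 of the 1455 between TVI and MFP metastases, 33 higher and 228 lower. The same fit called 22559 of all 135914 sites, 11542 higher and 11017 lower. Between TVI metastases and tumors it called 197 of the 1455, 12 higher and 185 lower, and 19761 of all sites, 10073 higher and 9688 lower. Between all metastases and tumors it called 21, 1 higher and 20 lower, and 6680 of all sites, 3253 higher and 3427 lower.

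The counts also changed with 1 sample left out, which leaves fewer samples to test with, so no particular sample is singled out. The falls given here are the largest. The 192 calls between TVI and MFP metastases, with 23001 over all sites, became 117 without MFP metastasis replicate 2, 112 without MFP metastasis replicate 3, 99 without TVI metastasis replicate 2 and 94 without TVI metastasis replicate 3. Over all sites the same fits called 20175, 19991, 18497 and 18620. The 146 calls between TVI metastases and tumors, with 22552 over all sites, became 50 and 49 without primary tumor replicate 1 and 2, and 79 and 70 without TVI metastasis replicate 2 and 3. Over all sites these fits called 16823 and 16491, and 17755 and 17841. The 16 calls between all metastases and tumors, with 9162 over all sites, became 0 without either tumor, where 2279 and 2239 of all sites were called. They became 8, 5 and 6 without MFP metastasis replicates 1, 2 and 3, with 7747, 7154 and 6772 over all sites, and 6 and 4 without TVI metastasis replicates 2 and 3, with 6775 and 6210.

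Most of the sites stood alone. Joining sites at most 500 bp apart gave 1116 runs, of which 908 held a single site (62.4% of the 1455), 152 held a pair and 42 held 3 or 4. The other 14 were clusters of 5 or more with 108 sites in all. The covered positions form 3316 stretches under the same 500 bp limit, and 819 of these (24.7%) held at least 1 site of the set. The nearest covered position was itself in the set for 164 of the 1455 (11.3%), against 0.988% of all positions. The share was 10.2% without the largest cluster. Of the 333 sites that kept to 40% to 60% in all samples it was 1.80%, against 0.232% of all positions whose nearest position was one of the 333. Position was not used by the rule, but neighboring CpGs share reads, so they are not independent.

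The means of adjacent members differed least at the shortest distances. At 1 to 10 bp the median difference between the means of adjacent pairs was 2.54 points (48 pairs), at 11 to 50 bp it was 4.01 points (52 pairs), and at 51 to 250 bp it was 5.42 points (30 pairs). Overlapping reads can cover the closest pairs. The rule bounds all of these differences, and members paired at random were not compared, so nothing is read from their size.

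The positions on either side placed the sites mainly in partly methylated surroundings. The nearest position on each side, within 250 bp, had a mean between 20% and 80% on both sides for 458 sites (31.5%), and this was so for 6.12% of all sites. A position at 80% or more on one side and one between on the other flanked 326 sites (22.4%), against 11.1% of all. A further 213 (14.6%) were single dips between positions at 80% or more, which was the surrounding of 47.4% of all sites, and 30 (2.06%) rose between positions at 20% or less, against 17.0% of all. A direct step from 20% or less to 80% or more lay around 70 sites (4.81%), against 2.18% of all.

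These surroundings were not particular to stable sites. Another 7883 sites had a mean from 35% to 65% but left the range in at least 1 sample, so that the retained sites were 15.6% of the 9338 with such a mean. Among the 7883, 34.5% had both sides between 20% and 80%, 21.8% had one side at 80% or more and the other between, and 10.7% were single dips. The largest difference from the 1455 was in single dips, 14.6% against 10.7%, and it was not tested.

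**Figure D3:**
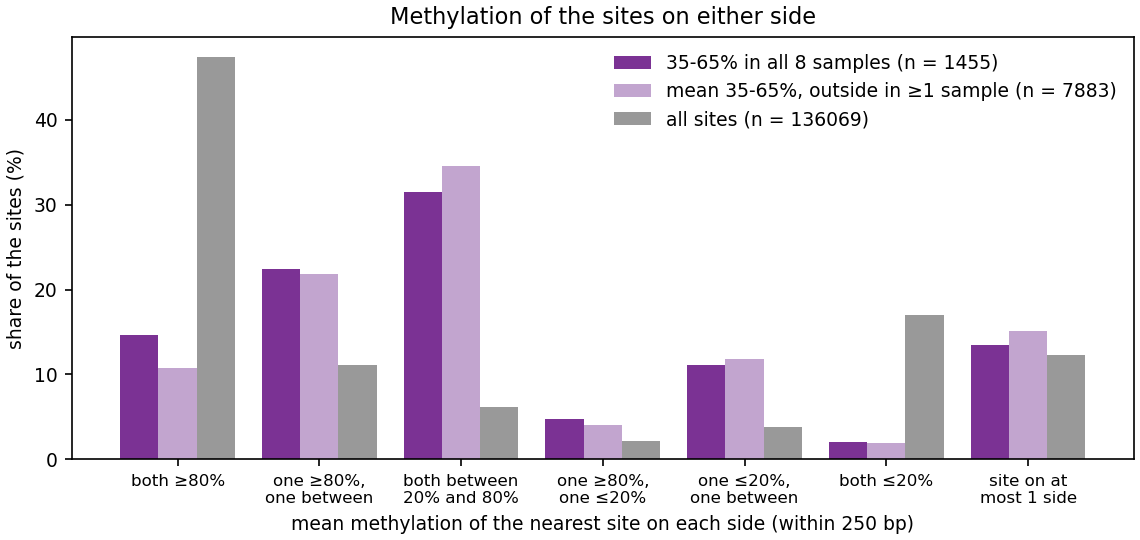
Share of sites in percent (y axis) by the mean methylation of the nearest position on each side within 250 bp (x axis), for the 1455 intermediate sites, for 7883 sites with an intermediate mean that left the range in at least 1 sample, and for all 136069 sites. Both intermediate sets peak where the 2 flanks lie between 20% and 80% (31.5% and 34.5%), and all sites peak where both flanks are at 80% or more (47.4%).

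Local density of covered positions was similar for all of these sets. The median number of other positions within 250 bp was 7 for the 1455 and for the 7883, and 8 for all sites. The share of the set fell from 1.37% of positions with 0 to 4 others within 250 bp, through 1.19% at 5 to 9 and 0.877% at 10 to 19, to 0.577% at 20 to 29. It was 0.937% at 30 or more, and 0.472% there without the largest cluster. Of the sites with an intermediate mean, 14.5% to 15.5% were stable in the density classes up to 29, and 27.3% at 30 or more, which became 16.8% without the largest cluster. The high value at the densest positions rests on that cluster.

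Positions next to the set took intermediate levels too. The 3917 other positions within 100 bp had a median of 69.0%, against 91.4% for all positions outside the set, and 22.3% of them had a mean from 35% to 65%, against 5.86%. Both figures leave out the members themselves. A neighbor with a mean from 35% to 65% is thus one that left the range in at least 1 sample, so no share of called sites is given for that level. Neighbors with a mean outside the range could not be members, and they too differed from other sites in level. Of the neighbors below 35%, 45.5% passed limma between TVI and MFP metastases against 19.1% elsewhere, at median levels of 18.2% and 1.97%. Of those above 65%, 25.2% passed against 11.3%, at median levels of 88.8% and 94.6%. The part of level in these shares was not tested.

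The chromosomes contributed unevenly. Chromosome 8 had the highest share, 265 of 16524 positions (1.60%), and still 1.43% without the largest cluster. Chromosome 11 held 268 of 24179 (1.11%), chromosome 2 had 165 of 14973 (1.10%) and chromosome 5 had 127 of 14826 (0.857%). The lowest share among chromosomes with any was 0.655%, on chromosome 4. Chromosomes 13 and X had 0, but with only 477 and 71 covered positions.

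The largest cluster lay on chromosome 8 from 123640137 to 123641081, with 29 members among 46 covered positions in 945 bp. All 17 other positions there also had a mean from 35% to 65%. The members averaged 59.5% and 59.8% in the tumors, 56.3%, 52.3% and 56.2% in the MFP metastases, and 53.7%, 48.1% and 43.9% in the TVI metastases. All 6 metastases lay below both tumors, and TVI metastasis replicate 1 overlapped the MFP metastases. Group means were 59.7% ± 0.196 (SD, n = 2), 54.9% ± 2.26 (SD, n = 3) and 48.6% ± 4.94 (SD, n = 3). At the 17 positions outside the rule they were 60.3% ± 1.88, 53.5% ± 5.04 and 48.0% ± 3.14. Between TVI and MFP metastases limma called 0 of the 46 sites at an adjusted p under 0.05. Against the tumors it called 2 of the 29 members lower in the TVI metastases, where 5.24% of all sites were, and 4 of the 17 others. The other positions of a cluster are those that left the range in at least 1 sample or had a mean outside it, so their calls, here and in the clusters below, are descriptions. The mean was 76.0% over the 31 positions in the 1000 bp before the cluster. The positions nearest to its first member, from -797 to -489 bp from the middle of the cluster, had means of 51.1% to 58.6%. Intermediate levels thus ran on before the first member.

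The second cluster lay on chromosome 15 from 79157537 to 79158508, with 11 members among 24 positions, the other 13 all with a mean in the range. The members stood at 54.9% and 52.7% in the tumors, 56.7%, 52.7% and 57.5% in the MFP metastases, and 50.3%, 52.6% and 53.4% in the TVI metastases. The groups overlapped. This cluster bordered an unmethylated stretch, at a mean of 10.4% over 42 positions in the 1000 bp after it. In this border it was like the cluster on chromosome 19 from 3322152 to 3322669, with 7 members among 20 positions, a mean of 78.6% before and 11.4% after.

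The chromosome 19 cluster and one on chromosome 10 had the TVI metastases below all other samples. On chromosome 19 the members stood at 59.0% and 53.3% in the tumors, 58.4%, 57.8% and 55.5% in the MFP metastases, and 48.3%, 45.5% and 44.1% in the TVI metastases. On chromosome 10 from 128370942 to 128371385, 6 members stood at 54.1% and 54.9%, at 59.2%, 57.8% and 55.1%, and at 45.9%, 48.7% and 46.2%. The 21 other positions of the chromosome 10 cluster were not in the rule and had means of 52.8% ± 1.46 (SD, n = 2), 58.7% ± 4.5 (SD, n = 3) and 43.4% ± 1.15 (SD, n = 3), and limma called 8 of them lower in TVI than in MFP metastases. On chromosome 19, 3 of 13 such positions were called lower. Of the members, 2 of the 7 on chromosome 19 and 0 of the 6 on chromosome 10 were called lower in this comparison. Of all sites, 6.53% were. Under quantile normalization the TVI metastases lay below all other samples in 10 of the 14 clusters instead of 2.

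**Figure D4:**
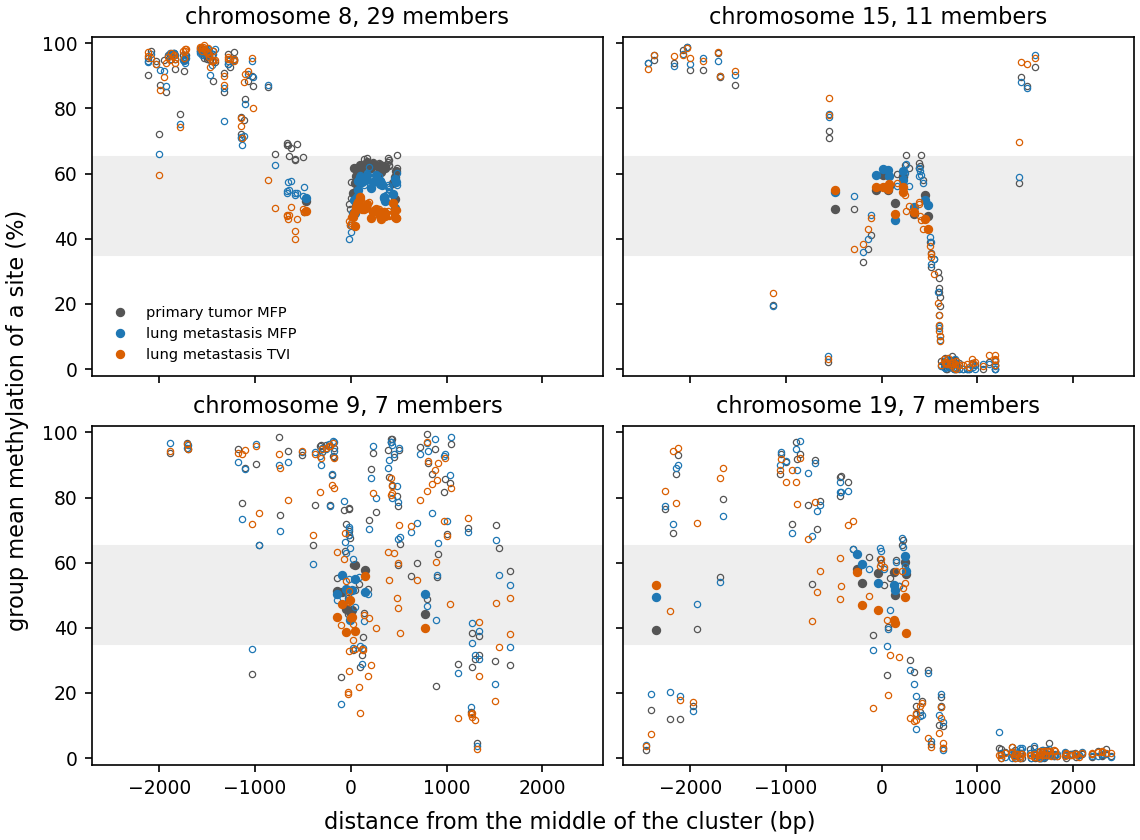
Group mean methylation in percent (y axis) of every covered position by distance in bp from the middle of the 4 largest clusters (x axis); filled points are members, open points other positions, and the gray band is the range of the rule. In the chromosome 8 cluster every position has a mean over the 8 samples within the band, the chromosome 15 and 19 clusters sit beside positions near 0, and the chromosome 9 members are interleaved with positions below 35% and above 65%.

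The cluster on chromosome 9 from 107578344 to 107578632 differed in its texture. Its 7 members sat among 20 other positions of which 5 had a mean below 35%, 2 above 65% and 13 between. The members stood at 53.8% and 47.8% in the tumors, 54.0%, 50.96% and 48.8% in the MFP metastases, and 43.7%, 43.4% and 48.3% in the TVI metastases. TVI metastasis replicate 3 overlapped the other samples. Of the 20 other positions limma called 11 lower and 1 higher in TVI than in MFP metastases. Their TVI mean was 39.4% ± 1.66 (SD, n = 3) against 51.9% ± 4.70 (SD, n = 3). Of the 7 members limma called 2 lower in this comparison, where 6.53% of all sites were.

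The cluster that holds the start of Rhof, on chromosome 5 from 123582284 to 123582856, had 6 members among 27 positions. They stood at 51.8% and 47.3% in the tumors, 51.2%, 52.7% and 48.4% in the MFP metastases, and 47.2%, 49.2% and 53.0% in the TVI metastases. The groups overlapped fully at the members. The 21 other positions had means of 43.3% ± 3.67, 42.5% ± 4.23 and 33.0% ± 0.523. Limma called 7 of them and 0 of the 6 members lower in TVI than in MFP metastases, against 6.53% of all sites. The cluster that holds the start of Grin1os, on chromosome 2 from 25146389 to 25146825, had 5 members at 44.4% to 52.4%, with all groups overlapping. In the same comparison 2 of its 19 other positions and 0 of its 5 members were called lower.

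The remaining named clusters were on chromosome 11 from 8529079 (6 members, samples at 45.8% to 56.5%), chromosome 9 from 20615948 (6 members, 47.9% to 51.2%), chromosome 8 from 73268217 (5 members, 48.0% to 60.4%), chromosome 2 from 167768404 (5 members, 48.0% to 55.9%) and chromosome 1 from 184913555 (5 members, 46.6% to 55.6%). The one on chromosome 9 from 20615948 varied least between samples. Its members were far from one another, with a median of 2 other positions within 250 bp, and its 5 other positions were all outside the range by their means. On chromosome 8 from 73268217 and chromosome 1 from 184913555 the members were dips in methylated DNA, since 15 of 18 and 8 of 8 other positions had a mean above 65%. A gene start was placed within 50000 bp of only 2 of the 14 clusters, those of Rhof and Grin1os.

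**Figure D5:**
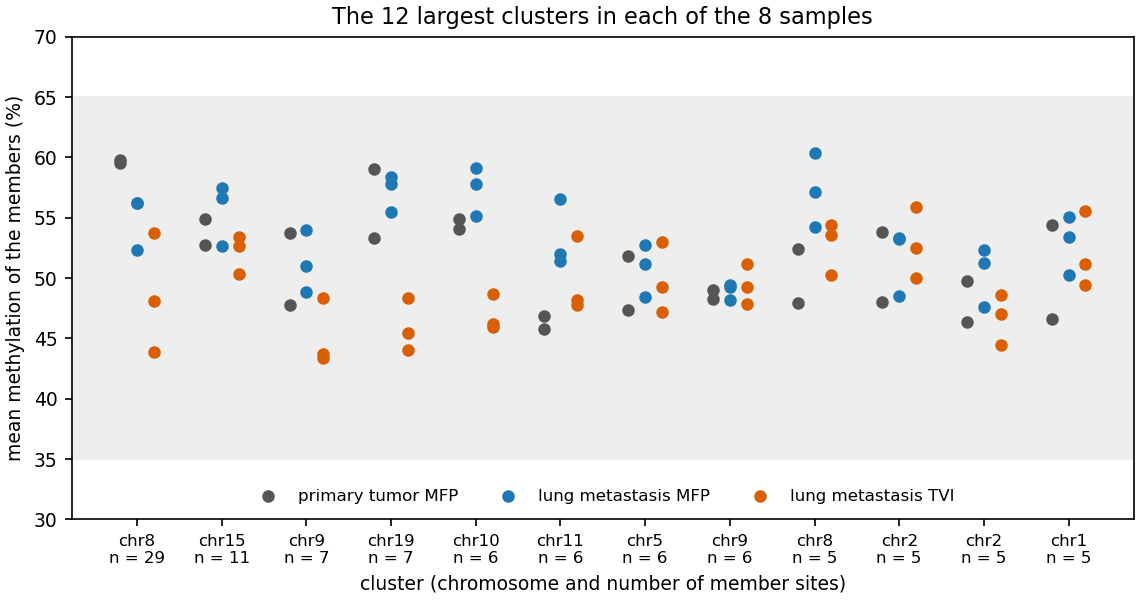
Mean methylation in percent of the members (y axis) of the 12 clusters with most members (x axis, chromosome and number of members), with 1 point per sample; the gray band is the range of the rule. The TVI metastases lie below all other samples on chromosomes 19 and 10, and both tumors lie above all metastases in the chromosome 8 cluster of 29.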

How the data were processed

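The table held methylated fractions (0 to 1) of 136069 cytosine positions in 8 samples, made by the authors from bisulfite-converted genomic DNA and deposited without read counts. Trimmomatic, Bismark and mm10 are named in the submitters' processing notes, with no versions or settings. The deposited coordinates did not behave as mm10: 557 of 3166 positions on chromosome 7 lay beyond its last gene in the GRCm38.p6 table, so they are printed as deposited, with no build. Fractions were multiplied to percent and not otherwise changed. Differences between groups were fitted over all sites with limma 3.58.1 (R 4.3.3), with 1 mean per group, a moderated variance with a trend, Benjamini-Hochberg adjustment and a threshold of 0.05, and the procedure was tested on simulated data.

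Sites and gene lists were chosen with earlier results of these data known. Text names the 12 clusters with most members, the 5 sites with the smallest and the 5 with the largest range, the 3 sites on each side of each limit, and placed promoters with at least 3 members. Clusters are runs of at least 5 members at most 500 bp apart. RefSeq promoter windows (GRCm38.p6) were placed by CpG spacing, and fits on the gene's own chromosome were kept. The planned rule, 6 matches and 90% of CpGs, gave most fits on a chromosome other than the gene's, with only 421 of 2378 (17.7%) on the gene's own. A stricter one, at least 8 matches and no further site in the span, was added after seeing the data and is used for every gene named. Of its 225 fits, 219 were on the gene's chromosome, and 183 of these lay over 1000 bp from the reference position. Alternatives were other ranges, gaps and distances, quantile normalization, a logit scale, a filter to means of 10% to 90%, the replicate number as a block, and each sample left out.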

Additional observations from a re-analysis of the deposited data

Results flagged for a closer look

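The 6 intermediate sites of the cluster on chromosome 10 from 128370942 lay on opposite sides of the tumors in the metastasis groups. Every MFP metastasis, at 59.2%, 57.8% and 55.1%, lay above both tumors, at 54.1% and 54.9%, and every TVI metastasis, at 45.9%, 48.7% and 46.2%, lay below them. The mean of the TVI metastases minus that of the MFP metastases was -10.4 points. The difference between the groups' effects was not tested, and limma called 0 of the 6 members between TVI and MFP metastases.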

How the results depend on the processing

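The number of intermediate sites was 333 with a range of 40% to 60% and 3325 with 30% to 70%, 1534 after quantile normalization, and 1562 to 1678 with 1 sample left out. The share whose nearest position was in the set was 1.80% and 19.2% with those ranges, against 0.232% and 2.26% of all positions, and 11.7% to 13.03% with 1 sample left out. The 14 clusters became 8 with a gap of 250 bp, 21 with 1000 bp, 56 with at least 3 members, and 14 to 17 with 1 sample left out. The median number of other positions was 3 within 100 bp and 14 within 500 bp. The median of neighbors was 65.8% within 50 bp and 74.2% within 250 bp. The planned placement gave 421 windows, 15 with members, and the stricter rules 219 and 9. Most fits of the planned rule were on another chromosome than the gene's, so some of the 421 may be misplaced. Of the sites in the set, the filter to means of 10% to 90% called 127 between all metastases and tumors, 2 between MFP metastases and tumors, 321 between TVI metastases and tumors, and 379 between TVI and MFP metastases. Of the 38277 sites it kept, it called 13384, 379, 22904 and 23226 in these comparisons. The logit scale called 8 of the set and 6730 of all sites between all metastases and tumors. With 1 sample left out these counts ran from 0 to 18, 49 to 136 (TVI against tumors) and 94 to 181 (TVI against MFP). Of all sites, 9162 were called between all metastases and tumors and 2239 to 9637 with 1 sample left out. Between MFP metastases and tumors, 63 were called, 28 after quantile normalization, 0 on the logit scale, 379 with the filter, and 0 to 18 with 1 sample left out. With the replicate block, 5200 sites and 2 of the set were called between all metastases and tumors, and 0 sites between MFP metastases and tumors. Between TVI metastases and tumors the block fit called 82 of the set and 19628 of all sites. Deviations of same-numbered samples correlated at -0.0037 to 0.0172, so the numbers were not taken to pair the samples. Where a sample was left out of the tumors, the lone tumor was assumed to vary like the other groups. The causes were not tested. With no read counts, the depth behind a fraction, and so its counting error, is unknown.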
